A study of Mus musculus with 8 samples.

Results

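Leukocytes bind to vessel walls, to each other and to matrix through a small set of surface proteins, and 9 genes of that set are described here in mouse splenocytes: the integrin subunits Itgal, Itgam, Itgb2, Itga6 and Itgb1, the integrin ligands Icam1 and Icam2, the selectin ligand Selplg and the hyaluronan receptor Cd44. The members were named by symbol, and each symbol was matched to its Ensembl gene through the GENCODE annotation of GRCm38. All 9 had a row among the 51826 genes of the count matrix, and all 9 passed the filter on low counts that left 16484 genes for testing. RNA of total splenocytes was sequenced from female mice of the Balb/c strain, aged 3 months, to ask how oral all-trans retinoic acid (tRA) alters gene expression in the spleen before any disease is induced. The tRA group (n = 4 mice) was dosed every day after weaning at 1 mg/kg body weight, the control group (n = 4 mice) received the vehicle, and no mouse was given pristane, the oil that induces lupus in this model. The sample titles name control and tRA mice, and a figure legend of the study gives dosing with vehicle or tRA and no pristane. The treatment text attached to all 8 libraries instead describes tRA dosing, so the groups were taken from the titles. Red blood cells were lysed before RNA extraction, and the cells were not sorted by type.

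Integrins are heterodimers of an alpha and a beta chain that reach the cell surface only as pairs. Itgal pairs with Itgb2 to form LFA-1, the integrin of lymphocytes that binds the ICAM proteins, and Itgam pairs with Itgb2 to form Mac-1 of myeloid cells and NK cells. PSGL-1, the product of Selplg, lets leukocytes roll on selectins, and CD44 binds hyaluronan and is high on antigen-experienced T cells.

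The libraries held 37539631, 31833853, 35924683 and 30919272 counts in control mice 1 to 4 and 33755595, 31810417, 35165876 and 32042754 counts in tRA mice 1 to 4. Levels are given as CPM, the counts of a gene per 1000000 counts of a library whose size was scaled by the trimmed mean of M values (TMM), and each fold change is tRA over control. Markers of lymphocytes were abundant, led by Cd79a at 915 CPM per kilobase of exon among B cell markers and Trac at 317 among T cell markers. The hepatocyte gene Alb, included as a gene that spleen should lack, reached at most 1.4 CPM, in tRA mouse 1.

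Of the 9 genes 0 passed a false discovery rate (FDR) of 0.1 by the quasi-likelihood test of edgeR, as did 0% of the 16484 genes tested (0 genes). The adjusted p values of the members ran from 0.757 to 0.992. With DESeq2, 27 of 13698 genes with an adjusted p, or 0.197%, were under 0.1, and 0 of the 9 members were among them, the lowest member value being 0.641. At an unadjusted p under 0.05 in edgeR, 1 of the 9 members was counted (Cd44, 11.1%) beside 1070 of all genes tested, or 6.49%. The log2 fold change was above 0 for 6 members and below 0 for 3, with a median of 0.064, against a median of 0.0014 over all genes tested. Of all genes tested 50.3% had a log2 fold change above 0. That share and the 6.49% are the background for the counts of each gene list below. The lists were chosen with earlier results of these data known. All tRA values lay above all control values for 1 member (Icam2), as for 1.91% of all genes tested, and no member (0 of 9) had all tRA values below the controls, as 1.63% of all genes did. Because whole splenocytes were measured, fewer cells of a type and less RNA per cell cannot be told apart for any of these genes.

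**Figure D1:**
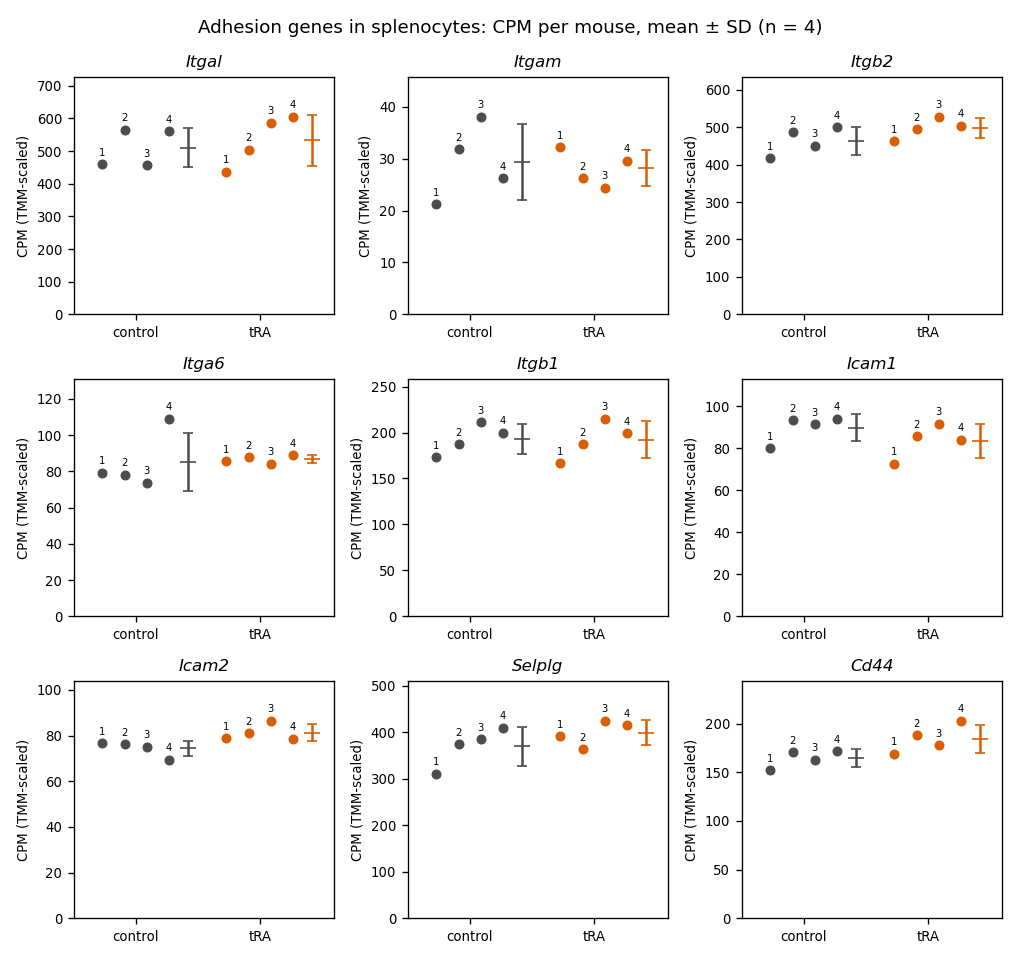
CPM of the 9 adhesion genes (vertical axes, each from 0) in control and tRA mice, with points numbered by mouse and bars giving the mean ± SD of 4 mice. The groups are separate for Icam2 only, at 69.5 to 76.6 CPM in control and 78.6 to 86.5 CPM in tRA mice, and overlap in the other panels.

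Itgal, the alpha chain of LFA-1 (ENSMUSG00000030830, chromosome 7, 127296260 to 127335138, plus strand), stood at 459, 565, 457 and 560 CPM in control mice 1 to 4 and at 437, 504, 587 and 605 CPM in tRA mice 1 to 4. The groups overlapped, with the lowest value in tRA mouse 1 and the highest in tRA mouse 4. The means were 510 ± 60.1 CPM in controls and 533 ± 77.9 CPM in tRA mice (SD, n = 4 each), a log2 fold change of 0.06 (SE 0.12, edgeR adjusted p = 0.922; exact permutation p = 0.657, two-sided). The difference was smaller than the spread between mice of either group. Its direction turned without tRA mouse 4 (log2 fold change -0.0019), and it was 0.01 without control mouse 3 or tRA mouse 3.

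The shared beta chain, Itgb2 (ENSMUSG00000000290, chromosome 10, 77530252 to 77565708, plus strand), gave 418, 487, 451 and 500 CPM in the controls and 463, 495, 528 and 504 CPM in the tRA mice. Control mouse 1 was lowest and tRA mouse 3 highest, and control mouse 4 lay above 2 of the 4 tRA mice. Means were 464 ± 37.0 and 497 ± 26.7 CPM (SD, n = 4 each), a log2 fold change of 0.10 (SE 0.08, edgeR adjusted p = 0.819; exact permutation p = 0.171, two-sided), which was 0.05 without control mouse 1.

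Both LFA-1 chains varied together over the 8 mice. Pearson's r of their log2 CPM was 0.812 (exact permutation p = 0.0122, 0.0365 after adjustment over 3 subunit pairs) and Spearman's rho was 0.81 (exact permutation p = 0.0218, adjusted 0.0653). Without control mouse 3 and tRA mouse 1, the mice farthest from the median of Itgal, r was 0.845 over 6 mice (exact permutation p = 0.0306) and rho was 0.771 (exact permutation p = 0.103). On deviations from the group means r was 0.854. Members that do not form a heterodimer also ran together, as a description: r over the 8 mice was 0.816 for Itgb2 with Selplg, 0.803 for Itgb1 with Icam1 and 0.773 for Itgb2 with Cd44. The TMM factor of a library moved with Itgal: it was 0.985, 1.01, 0.964 and 1.00 in control mice 1 to 4 and 0.971, 0.999, 1.05 and 1.02 in tRA mice 1 to 4, and its r with Itgal was 0.886 over 8 mice (exact permutation p = 0.00181, 0.0163 after adjustment over 9 members; rho 0.952) and 0.969 without control mouse 3 and tRA mouse 3. For Itgb2, r with that factor was 0.787 (exact permutation p = 0.0205, adjusted 0.0923), rho was 0.857 (exact permutation p = 0.0107, adjusted 0.0482), and r was 0.668 without the same mice (exact permutation p = 0.161). For the other 7 members the adjusted exact permutation p of r with the factor was at least 0.336. Without the same mice their r ran from -0.113 for Icam2 to 0.891 for Itgb1 (exact permutation p = 0.0181, not adjusted), with 0.719 for Icam1. The relation to the TMM factor was examined after the values had been seen, and its part in the correlation of the chains was not tested. With library size alone as the scale, r between the chains was 0.887.

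**Figure D2:**
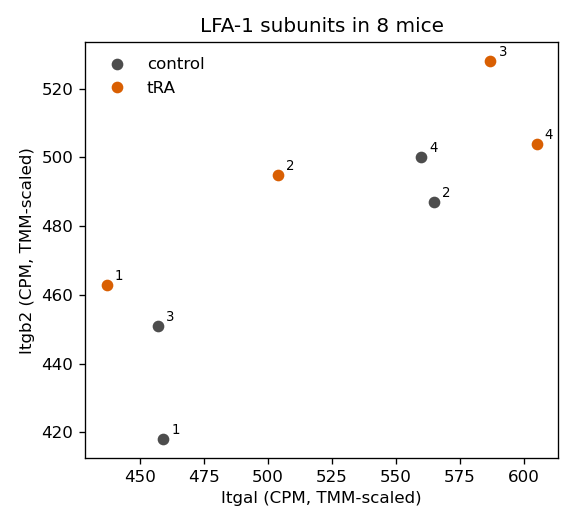
Itgal (horizontal axis, CPM) against Itgb2 (vertical axis, CPM) in 8 mice numbered within their group; neither axis starts at 0. Pearson's r of the log2 values was 0.812, and tRA mice 3 and 4 hold the highest pair of values.

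The log2 ratio of Itgal to Itgb2, which does not depend on how a library is scaled, was 0.14, 0.21, 0.02 and 0.16 in the controls and -0.08, 0.03, 0.15 and 0.27 in the tRA mice. The groups overlapped, with means of 0.13 ± 0.08 and 0.09 ± 0.15 (SD, n = 4 each), and the direction turned without tRA mouse 1.

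Itgam, the alpha chain of Mac-1 (ENSMUSG00000030786, chromosome 7, 128062640 to 128118491, plus strand), stood at 21.2, 31.9, 38.1 and 26.3 CPM in control mice 1 to 4 and 32.2, 26.3, 24.4 and 29.6 CPM in tRA mice 1 to 4. Control mice 1 and 3 held the lowest and the highest value, and all tRA values lay between them. Means were 29.4 ± 7.28 and 28.1 ± 3.47 CPM (SD, n = 4 each), a log2 fold change of -0.07 (SE 0.16, edgeR adjusted p = 0.952; exact permutation p = 0.83, two-sided). Of its 5024 exon bases, 3450 are shared on the same strand with the gene model Gm49368, which had a row of its own in the matrix at a mean of 0.865 CPM in controls. Reads in shared exons may have been dropped or split, so the level of Itgam is uncertain. Its direction rested on 1 library, since the log2 fold change was 0.08 without control mouse 3.

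Markers of the myeloid cells that carry Mac-1 are given beside Itgam. Of 13 neutrophil markers 11 had a lower mean in tRA mice. An unadjusted edgeR p under 0.05 was found for 8 (6.49% of all genes tested), though 0 passed the FDR in edgeR. The 2 higher markers, named after their values were seen, were Csf3r (log2 fold change 0.25, edgeR adjusted p = 0.848) and Cxcr2 (0.39, edgeR adjusted p = 0.776). The summed level of the 13 markers was 1049, 1535, 1378 and 1261 CPM in the controls and 870, 862, 770 and 1272 CPM in the tRA mice, and S100a9 was the most abundant per kilobase. Camp, an antimicrobial peptide gene of immature neutrophils, had the lowest p of that list, at 71.1 ± 5.25 CPM in controls and 30.2 ± 8.35 CPM in tRA mice (SD, n = 4 each; log2 fold change -1.23, SE 0.16, edgeR adjusted p = 0.135). The study, which tested with DESeq2 at an FDR under 0.1, lists Camp, Ngp and Ltf of these markers among its significant genes. Summed monocyte and macrophage markers, led by Lyz2, were at 693, 1230, 1152 and 905 CPM in the controls and 915, 1041, 1111 and 1173 CPM in the tRA mice, with 7 of 10 higher and 3 lower in mean, a median log2 fold change of 0.05, 0 under an unadjusted p of 0.05 and the lowest p for Cd14, a lower gene (log2 fold change -0.36, edgeR adjusted p = 0.780). Control mouse 1 was lowest for this sum and for Itgam. How far these cell types set the level of Itgam was not tested.

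The log2 ratio of Itgam to Itgb2 was -4.30, -3.93, -3.56 and -4.24 in the controls and -3.84, -4.23, -4.43 and -4.09 in the tRA mice. The groups overlapped, and the direction turned without control mouse 3. Over the 8 mice the chains were not correlated detectably (r = 0.00579, exact permutation p = 0.99). Without control mice 1 and 3, which lay farthest from the median of Itgam, r was -0.81 over 6 mice (exact permutation p = 0.0361, not adjusted) and rho was -0.771 (exact permutation p = 0.103).

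Itga6, which pairs with Itgb1 to bind laminin (ENSMUSG00000027111, chromosome 2, 71745616 to 71858416, plus strand), gave 79.2, 78.2, 73.8 and 109 CPM in the controls and 85.5, 87.8, 84.2 and 88.9 CPM in the tRA mice. Control mouse 4 stood above all other mice, and each tRA mouse lay above the other 3 controls. Means were 84.9 ± 15.9 and 86.6 ± 2.15 CPM (SD, n = 4 each), a log2 fold change of 0.03 (SE 0.11, edgeR adjusted p = 0.973; exact permutation p = 0.8, two-sided). Without control mouse 4 the log2 fold change was 0.17, with an unadjusted edgeR p of 0.0278 and an adjusted p of 0.759, so 1 library sets the size of this difference. Its direction turned without control mouse 1 (log2 fold change -0.0032), 2 (-0.0095) or 3 (-0.04). No alternative brought its adjusted p under 0.1.

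Itgb1, the beta chain of the very late antigen integrins (ENSMUSG00000025809, chromosome 8, 128685654 to 128733200, plus strand), was at 173, 187, 211 and 200 CPM in the controls and 167, 187, 215 and 199 CPM in the tRA mice. The values of the groups ran side by side, with tRA mouse 1 lowest and tRA mouse 3 highest. Means were 193 ± 16.7 and 192 ± 20.5 CPM (SD, n = 4 each), a log2 fold change of -0.01 (SE 0.09, edgeR adjusted p = 0.992; exact permutation p = 0.914, two-sided). Library size alone as the scale turned that sign, at 0.03, as did leaving out control mouse 3 (0.03) or 4 (0.01) or tRA mouse 1 (0.06) or 2 (0.0033).

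The log2 ratio of Itga6 to Itgb1 was -1.12, -1.26, -1.52 and -0.88 in the controls and -0.96, -1.09, -1.35 and -1.16 in the tRA mice. The groups overlapped, and the direction turned without control mouse 3 or tRA mouse 1. Their correlation over the 8 mice was not detectable (r = 0.0593, exact permutation p = 0.896; rho = -0.0714), nor was it without control mice 3 and 4 (r = 0.255 over 6 mice, exact permutation p = 0.633).

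Among 21 other integrin subunits 19 were tested, 11 had a higher and 8 a lower mean in tRA mice, 2 had an unadjusted edgeR p under 0.05 (1 higher, 1 lower), and 0 passed the FDR. Their median log2 fold change was 0.05. Itgb7, the beta chain of the gut-homing integrins, was the most abundant per kilobase, at 569 ± 57.6 CPM in controls and 590 ± 20.6 CPM in tRA mice (SD, n = 4 each; edgeR adjusted p = 0.913). Itgb8 had the lowest p of the list but lay near the floor, at 1.24 ± 0.39 and 0.77 ± 0.17 CPM (log2 fold change -0.69, SE 0.28, edgeR adjusted p = 0.757). All its tRA values lay below all control values (exact permutation p = 0.0286). The higher gene was Itga4, an alpha chain that pairs with Itgb1 or Itgb7, named after its values were seen, at 368, 391, 297 and 369 CPM in the controls and 377, 437, 390 and 547 CPM in the tRA mice. Its groups overlapped, with tRA mouse 4 above all others (log2 fold change 0.30, SE 0.13, edgeR adjusted p = 0.757). Of 23 genes that regulate integrin activation or tie integrins to actin, 17 were higher and 6 lower in mean, 0 had an unadjusted p under 0.05, and the median was 0.05. Sipa1, which switches off the small GTPase Rap1, led that list per kilobase at 682 ± 41.7 and 670 ± 35.5 CPM, and Apbb1ip, the Rap1 effector that recruits talin, had its lowest p, at 211 ± 12.3 and 233 ± 7.89 CPM (log2 fold change 0.14, SE 0.06, edgeR adjusted p = 0.757).

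Icam1, the inducible ligand of LFA-1 and Mac-1 (ENSMUSG00000037405, chromosome 9, 21015985 to 21028817, plus strand), stood at 80.1, 93.2, 91.5 and 94.0 CPM in the controls and 72.6, 85.6, 91.6 and 84.1 CPM in the tRA mice. Control mouse 1 and tRA mouse 1 were the lowest of their groups, and the groups overlapped. Means were 89.7 ± 6.51 and 83.5 ± 7.96 CPM (SD, n = 4 each), a log2 fold change of -0.10 (SE 0.08, edgeR adjusted p = 0.824; exact permutation p = 0.314, two-sided), which was -0.04 without tRA mouse 1. Of its exon bases 511 are shared with an antisense gene, Gm47079, and the library kit did not mark strand, so reads there cannot be assigned to either gene.

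Icam2, a ligand of LFA-1 that is constitutive on lymphocytes, platelets and endothelium (ENSMUSG00000001029, chromosome 11, 106377656 to 106388075, minus strand), gave 76.6, 76.2, 75.2 and 69.5 CPM in the controls and 78.8, 81.0, 86.5 and 78.6 CPM in the tRA mice. All tRA mice lay above all controls, with control mouse 1 and tRA mouse 4 the nearest pair across the groups. Means were 74.4 ± 3.28 and 81.2 ± 3.70 CPM (SD, n = 4 each), a log2 fold change of 0.13 (SE 0.06, edgeR adjusted p = 0.778; exact permutation p = 0.0286, two-sided, the smallest that 4 against 4 can give). Scaled by library size alone the groups overlapped, with control mouse 2 at 76.9 and tRA mouse 1 at 76.4 CPM on that scale. The log2 fold change of Icam2 was then 0.16, with an unadjusted edgeR p of 0.0472 against 0.067 with TMM. Endothelial markers summed to 18.5, 35.4, 42.4 and 22.4 CPM in the controls and 26.2, 26.2, 50.4 and 32.2 CPM in the tRA mice, and platelet markers to 13.4, 14.0, 12.8 and 11.4 CPM in the controls and 13.4, 11.3, 12.2 and 11.5 CPM in the tRA mice. The groups overlapped for both sums, and 0 genes of either list had an unadjusted p under 0.05, with 7 of 9 endothelial and 2 of 6 platelet markers tested higher in mean. Stab2 was the most abundant endothelial and Gp1ba the most abundant platelet marker per kilobase, and the lowest p fell to Ptprb (edgeR adjusted p = 0.804) and Pf4 (edgeR adjusted p = 0.837).

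The log2 ratio of Icam1 to Icam2 was 0.06, 0.29, 0.28 and 0.44 in the controls and -0.12, 0.08, 0.08 and 0.10 in the tRA mice. Only control mouse 1 fell within the range of the tRA mice, and the means were 0.27 ± 0.15 and 0.03 ± 0.10 (SD, n = 4 each).

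Icam1 is a known target of NF-kB, and its promoter is shown because it is the member that was set beside the NF-kB list. The 250 bases before the RefSeq start of Icam1 (GRCm38.p6, chr9:21015690-21015939, plus strand) hold the motif GGAAATTCC, in capitals, 1 time on the plus strand and 0 times on the minus strand. The motif starts 153 bases before the gene's start, and 94 of 32851 promoter windows of the same length, or 0.286%, hold it on either strand. A match of letters is a description and says nothing of binding in these mice. Only this motif was searched for, and the search was not planned, so the share over all windows is no test of the match. RefSeq windows were found for 4 of the 9 members.
Icam1: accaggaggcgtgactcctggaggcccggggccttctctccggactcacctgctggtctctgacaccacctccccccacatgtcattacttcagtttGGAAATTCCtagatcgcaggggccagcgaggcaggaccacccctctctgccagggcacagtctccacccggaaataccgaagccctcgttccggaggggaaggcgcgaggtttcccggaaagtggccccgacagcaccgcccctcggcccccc

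Of 12 NF-kB feedback genes 11 had a lower mean in tRA mice, 0 had an unadjusted edgeR p under 0.05, and the median log2 fold change was -0.15 against 0.0014 over all genes. Among all genes tested 50.3% were higher in tRA mice. The motif occurs in the windows of 2 of these 12 genes, Nfkbia and Tnfaip3. Nfkbia, the inhibitor that NF-kB itself induces, was the most abundant per kilobase, at 426, 399, 345 and 328 CPM in the controls and 480, 340, 188 and 237 CPM in the tRA mice. tRA mice 3 and 4 were lowest and tRA mouse 1 highest. No test related Icam1 to these genes. Nfkbie had the lowest p, at 102 ± 5.34 and 92.3 ± 5.54 CPM (SD, n = 4 each; log2 fold change -0.15, SE 0.07, edgeR adjusted p = 0.757).

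Immediate early and heat shock genes, which cells induce quickly after a stimulus or stress, were all lower in mean in tRA mice (15 of 15), with 7 at an unadjusted edgeR p under 0.05, 0 past the FDR and a median log2 fold change of -0.52. Of all genes tested, 50.3% had a log2 fold change above 0 and 6.49% an unadjusted edgeR p under 0.05. The list was chosen with earlier results of these data known, so its counts are a description. Fos, the most abundant per kilobase, was at 3337, 3230, 3302 and 2866 CPM in the controls and 3563, 2762, 1117 and 1420 CPM in the tRA mice, and Jun had the lowest p (log2 fold change -0.58, SE 0.15, edgeR adjusted p = 0.757). tRA mice 3 and 4 thus stood apart from the other 6 mice for Fos, and the same mice held the highest Itgal values. The 4 heat shock genes of the list, named after their values were seen, were instead lowest in tRA mice 1 and 3: Dnajb1 was at 709, 611, 1094 and 730 CPM in the controls and 302, 514, 204 and 521 CPM in the tRA mice, and Hspa1a, Hspa1b and Hsph1 shared that order of low mice. Whether these genes bear on the adhesion genes was not tested.

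Of 14 other integrin ligands and junction receptors 10 were tested, 6 higher and 4 lower in mean, with 0 at an unadjusted p under 0.05 and a median of 0.01. Thy1 was both the most abundant per kilobase and the gene with the lowest p, at 292 ± 20.9 and 315 ± 9.56 CPM (SD, n = 4 each; edgeR adjusted p = 0.793). Icam4 had 0 counts in all libraries.

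Selplg, the gene of PSGL-1 (ENSMUSG00000048163, chromosome 5, 113818536 to 113832644, minus strand), was at 311, 374, 385 and 410 CPM in the controls and 392, 364, 425 and 416 CPM in the tRA mice. Control mouse 1 lay well below the rest, and the groups overlapped. Means were 370 ± 42.0 and 399 ± 27.5 CPM (SD, n = 4 each), a log2 fold change of 0.11 (SE 0.09, edgeR adjusted p = 0.837; exact permutation p = 0.314, two-sided), which was 0.03 without control mouse 1.

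PSGL-1 binds selectins only after its sugars and tyrosines are modified, and of 10 enzymes of these steps 4 were higher and 6 lower in mean, with 0 at an unadjusted p under 0.05 and a median of -0.03. Tpst2, a tyrosine sulfotransferase, was the most abundant per kilobase, at 108 ± 8.58 and 104 ± 6.09 CPM (SD, n = 4 each; edgeR adjusted p = 0.900), and Gcnt1, which branches core O-glycans, had the lowest p, at 84.8 ± 10.3 and 92.6 ± 5.73 CPM (edgeR adjusted p = 0.804). Of 11 selectins and selectin ligands 9 were tested, 7 higher and 2 lower in mean, 2 with an unadjusted edgeR p under 0.05 and 0 past the FDR. Among all genes tested 50.3% were higher and 6.49% had an unadjusted edgeR p under 0.05. Sele had the lowest p at a level near the floor, 0.72 ± 0.18 and 1.38 ± 0.22 CPM (SD, n = 4 each; log2 fold change 0.94, SE 0.25, edgeR adjusted p = 0.757). All its tRA values lay above all control values (exact permutation p = 0.0286). The other gene under 0.05 was Spn, the sialophorin CD43, named after its values were seen, at 221, 228, 270 and 248 CPM in the controls and 259, 258, 345 and 308 CPM in the tRA mice. The groups overlapped for Spn, since control mouse 3 lay above tRA mice 1 and 2 (log2 fold change 0.28, SE 0.11, edgeR adjusted p = 0.757).

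Cd44, the hyaluronan receptor (ENSMUSG00000005087, chromosome 2, 102811141 to 102901665, minus strand), gave 152, 171, 163 and 172 CPM in the controls and 169, 188, 178 and 203 CPM in the tRA mice. tRA mouse 1 lay below control mice 2 and 4, and the other 3 tRA mice lay above all controls. Means were 164 ± 9.18 and 184 ± 14.5 CPM (SD, n = 4 each), a log2 fold change of 0.17 (SE 0.07, edgeR adjusted p = 0.757; exact permutation p = 0.0857, two-sided). Its unadjusted edgeR p was 0.044, close to the cutoff, and the call was lost on leaving out any of several mice. That p was 0.121 without control mouse 1, 0.0828 without control mouse 3, 0.101 without tRA mouse 2, 0.0531 without tRA mouse 3 and 0.146 without tRA mouse 4. The log2 fold change ran from 0.1187 to 0.2077 when each mouse was left out, and each such fit also has 1 mouse fewer. Counts do not separate the splice forms of CD44.

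Of 17 partners of CD44, linkers to actin and hyaluronan enzymes 13 were tested, 12 higher and 1 lower in mean, with 0 at an unadjusted p under 0.05 and a median of 0.10. Among all genes tested 50.3% were higher. The lower gene was Cd74, the invariant chain of MHC class II that also binds MIF with CD44, and it was the most abundant per kilobase, at 7293, 6943, 6764 and 6748 CPM in the controls and 6638, 6539, 5869 and 5788 CPM in the tRA mice. All tRA mice lay below all controls (log2 fold change -0.16, SE 0.09, edgeR adjusted p = 0.780; exact permutation p = 0.0286). Vcan, a matrix proteoglycan gene, had the lowest edgeR p of the list at a level near the floor, 0.46 ± 0.13 and 0.73 ± 0.15 CPM (SD, n = 4 each; edgeR adjusted p = 0.757). All its tRA values lay above all control values (exact permutation p = 0.0286).

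Lymphocyte markers are given beside Itgal, Icam2, Selplg and Cd44, which lymphocytes carry. T cell markers summed to 1802, 1832, 2129 and 2205 CPM in the controls and 2167, 2095, 2117 and 2165 CPM in the tRA mice. Higher means were found for 8 of 10 (50.3% of all genes tested). An unadjusted edgeR p under 0.05 was found for 2 (6.49% of all genes tested), the lowest for Il7r (edgeR adjusted p = 0.757). B cell markers summed to 7188, 6655, 6498 and 6016 CPM in the controls and 6603, 6711, 6553 and 6560 CPM in the tRA mice, with 4 of 8 higher in mean and the lowest p for Blk (log2 fold change -0.15, edgeR adjusted p = 0.761). NK cell markers, led by Gzma, summed to 305, 400, 460 and 310 CPM in the controls and 368, 367, 374 and 329 CPM in the tRA mice, with 1 of the 6 tested higher and 5 lower in mean and a median log2 fold change of -0.06. The higher gene, Ncr1, had the lowest p of that list (log2 fold change 0.27, edgeR adjusted p = 0.792). The groups overlapped for these 3 sums. Dendritic cell markers, led by Itgax, summed to 130, 156, 141 and 193 CPM in the controls and 124, 146, 163 and 154 CPM in the tRA mice, with 2 of 7 higher and 5 lower in mean and a median log2 fold change of -0.15. The 1 gene of that list at an unadjusted p under 0.05, Cd209a, was higher in tRA mice (log2 fold change 0.27, SE 0.12, edgeR adjusted p = 0.757). Erythroid markers, led by Hbb-bs, were uneven between mice, at 862, 1632, 2485 and 529 CPM in the controls and 2329, 670, 3723 and 633 CPM in the tRA mice, with 6 of 9 higher in mean and the lowest p for Car1, a lower gene (edgeR adjusted p = 0.808). The 4 hepatocyte genes summed to at most 1.83 CPM and 0 of them passed the filter. The part of any cell type in the values of the adhesion genes was not tested.

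Per kilobase of exon the members spanned a wide range of levels. Itgb2 was highest at 158 ± 11.4 CPM per kilobase over the 8 mice (SD), followed by Selplg at 90.0 ± 8.49, Itgal at 79.4 ± 9.98, Itgb1 at 47.1 ± 4.24, Icam2 at 40.9 ± 2.57, Cd44 at 25.7 ± 2.30, Icam1 at 19.9 ± 1.72, Itga6 at 9.51 ± 1.17 and Itgam at 5.72 ± 1.06. The ranges over the mice overlapped between Selplg and Itgal and between Itgb1 and Icam2, and were separate between all other neighbours in that order. Dividing all counted reads of Itgam by only the 1574 bases that it does not share gave 18.3 ± 3.38 CPM per kilobase. That value is an upper bound, reached only if no read in the shared exons was counted. The order of Itgam and Itga6 is therefore uncertain.

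**Figure D3:**
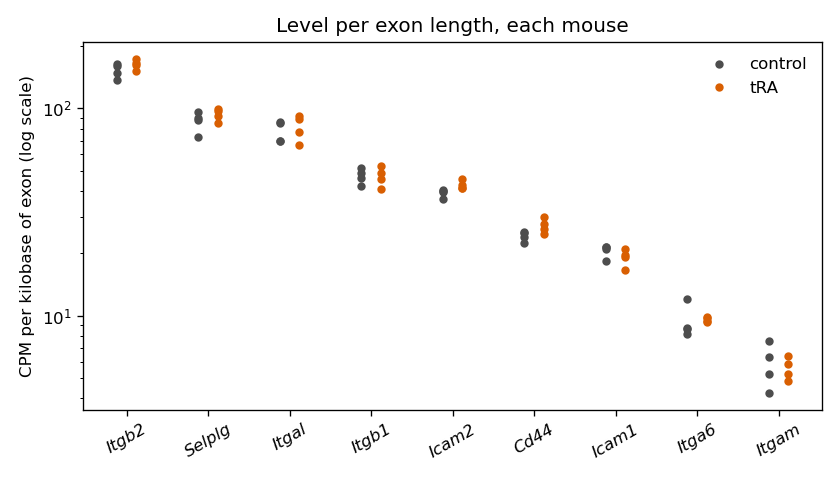
Level of the 9 genes in CPM per kilobase of exon (vertical axis, log scale) in each of the 4 control and 4 tRA mice, ordered by the mean of all mice. Itgb2 is highest at 137 to 173 and Itgam lowest at 4.23 to 7.59 CPM per kilobase.

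The genes whose log2 CPM ran most like each member over the 8 mice were drawn from the other 9110 genes with a mean of at least 10 CPM. For Itgal they were Top3b (r = 0.984), Golim4 (0.980) and Prkar2a (0.974), for Itgb2 I830077J02Rik (0.977), Rab37 (0.972) and Serhl (0.972), and for Itgam Borcs8 (0.969), Ifitm3 (0.954) and Sephs2 (0.950). For Itga6 they were Wdr59 (0.964), Igkv14-100 (0.933) and Cep152 (0.913), and for Itgb1 Elovl1 (0.981), Cyth4 (0.967) and Gusb (0.960). For Icam1 they were Plbd1 (0.977), Foxred2 (0.963) and Mfsd10 (0.959), and for Icam2 Dbt (0.947), Cnot9 (0.945) and Spg20 (0.939). For Selplg they were Rtel1 (0.965), Trim21 (0.962) and Ifih1 (0.946), and for Cd44 Dclre1b (0.943), Nemf (0.937) and Lrrc75b (0.932). Each r is among the highest of 9110 over only 8 mice and is given as a description.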

How the data were processed

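The deposited counts are whole reads per Ensembl gene for 8 libraries, made by the authors from an unstranded TruSeq v2 preparation sequenced on 1 lane; the labels name no other batch. The methods of the study name ea-utils, Btrim, Bowtie2, Tophat2 and HTSeq, whereas the submitters' processing notes name STAR 2.5.2b, featureCounts 1.5.1 and GRCm38, and which made the matrix is not given in the sources used here. A table of the authors' own DESeq2 comparison (fold changes, standard errors, p values) was not used.

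Genes were filtered with filterByExpr, scaled by TMM and tested with edgeR 4.0.16 (group as the only term, Benjamini-Hochberg adjustment over all 16484 genes, FDR threshold 0.1). SE is the size of the log2 fold change over the square root of F. Log2 CPM used a prior count of 2. Exact permutation tests of group differences ran over the 70 assignments of 4 against 4 mice. Those of correlations permuted the values of 1 variable over the 8 mice, or over the 6 mice where some were left out. Alternatives were DESeq2 1.42.0, limma 3.58.1 (voom), other scalings and filters, protein-coding genes only, a replicate block and leaving out each mouse. The edgeR step was tested on simulated data. Replicates differed by more than counting noise (chi-square per degree of freedom at least 14.1). Positions and exon lengths came from GENCODE M21 and the promoter from RefSeq.

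The members and lists were chosen with earlier results of these data known. Named genes are all members, of each list the most abundant gene per kilobase, the gene with the lowest p and any past the FDR, and the 3 genes most correlated with each member; others were named after their values were seen. The most abundant gene of the selectin list and that list's median are not reported here.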

Additional observations from a re-analysis of the deposited data

Results flagged for a closer look

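In 114 groups of 4 values, 11 had 1 mouse far from the other 3 by Dixon's test for a single outlying value, and chance alone marks about 1 in 20 groups. Itga6 in control mouse 4 was at 109 CPM, with the other controls at 73.8 to 79.2. The log2 ratio of Icam1 to Icam2 in tRA mouse 1 was -0.118, with the other tRA mice at 0.0796 to 0.097.

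Among the lists, summed NK cell markers were at 329 CPM in tRA mouse 4 (others 367 to 374), and Camp was at 42.7 CPM in the same mouse (others 25.2 to 26.9). In tRA mouse 1, Cd209a was at 11.5 CPM (others 13.8 to 14), Itgb8 at 0.519 CPM (others 0.825 to 0.882), Alb at 1.4 CPM (others 0 to 0.217) and the summed hepatocyte genes at 1.83 CPM (others 0.0611 to 0.352). In control mouse 3, Alb was at 0.405 CPM (others 0 to 0.0323) and Pf4 at 0.722 CPM (others 0.249 to 0.325), and Vcan in control mouse 1 was at 0.271 CPM (others 0.517 to 0.529). The cause of these values was not tested.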

How the results depend on the processing

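Across 16 alternatives for each of the 9 members, 134 of 144 log2 fold changes kept their sign, 10 turned it, and 0 passed an FDR of 0.1. Itgb2 (0.0541 to 0.1379), Icam1 (-0.1542 to -0.0419), Icam2 (0.0945 to 0.1578), Selplg (0.0341 to 0.1608) and Cd44 (0.1187 to 0.2077) kept their sign over these alternatives. Itgb1 turned to 0.0272 with library size alone and ran from -0.0678 to 0.0558 when each mouse was left out. Leaving out each mouse gave -0.0019 to 0.1486 for Itgal, -0.1937 to 0.0787 for Itgam and -0.0404 to 0.1683 for Itga6. With an edgeR FDR under 0.1 there were 0 genes of all tested, against 27 with DESeq2, 6 without the filter on low counts, 1 with limma-voom and 0 to 3 when each mouse was left out (3 without tRA mouse 4). Genes with an unadjusted p under 0.05 numbered 657 (without tRA mouse 4) to 2105 (without tRA mouse 1) on leaving out each mouse, against 1070. Members with an unadjusted p under 0.05 numbered 1, 2 with library size alone and 0 to 2 when each mouse was left out. The count of members with separate groups was planned, and its 2 alternative scalings were added after seeing the data. It was 0 with library size alone and 1 with RLE size factors. The cause of these shifts was not tested. The 4 ratio differences moved by less than 1 SD, but 3 turned sign on leaving out 1 mouse: Itgal to Itgb2 from -0.0427 to 0.0152 (without tRA mouse 1), Itgam to Itgb2 from -0.1421 to 0.0070 (without control mouse 3) and Itga6 to Itgb1 from 0.0538 to -0.0536 (without control mouse 3) and -0.0061 (without tRA mouse 1).

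No pairing of the mice by sample number was detected, though so few correlations cannot exclude one. Deviations of same-numbered mice correlated at 0.157, -0.0229, -0.014 and 0.259, and 3 of 8 mice correlated best with their own number. With the number as a replicate block, 0 genes had an FDR under 0.1, 1200 had an unadjusted p under 0.05, and Cd44 had a log2 fold change of 0.1656.

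With 4 mice in each group, differences of the size seen here lie within the spread between mice for most members, and a p that misses the threshold does not show equal expression.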
